A study of Mus musculus with 2 samples.

Results

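The proteasome family of genes was described in mouse peritoneal macrophages treated with LPS+CPN+GGOH, against the same kind of cells treated with LPS+CPN. Members were all probe sets annotated to exactly 1 gene symbol of the Psma, Psmb, Psmc, Psmd, Psme, Psmf or Psmg series followed by a number or to Pomp. There were 101 such probe sets, of 48 genes, among 34945 probe sets with 1 gene symbol in all. Both treatments were given to cells of C57BL/6J mice that had been collected from the peritoneal cavity 3 days after thioglycolate, an irritant that recruits macrophages. LPS (lipopolysaccharide) and CPN, a compound that the labels give by this abbreviation alone, were common to both groups, and GGOH (geranylgeraniol, an isoprenoid alcohol) was the agent that differed. Each group was 1 array, and the labels state neither dose nor duration nor how many animals stood behind each culture. With 1 array per group there was no test and no replicate spread, so every value below describes these 2 arrays. Signals are the deposited linear intensities, a gene is given by its brightest probe set outside the cross-hybridizing _x_at class, and a log2 ratio is LPS+CPN+GGOH over LPS+CPN, so that values below 0 mean a lower signal with GGOH.

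The proteasome is the barrel-shaped protease that degrades proteins tagged with ubiquitin. Its 20S core is built of stacked rings of alpha subunits (Psma genes), which form the gate, and beta subunits (Psmb genes), of which Psmb5, Psmb6 and Psmb7 carry the active sites. A 19S cap of ATPases (Psmc genes) and other subunits (Psmd genes) recognises, unfolds and feeds in the substrate. In cells exposed to interferon-gamma, and constitutively in many leukocytes, newly made cores take up Psmb8, Psmb9 and Psmb10 in place of Psmb5, Psmb6 and Psmb7. These immunoproteasomes, with the activator made of Psme1 and Psme2, are known for making peptides that suit presentation on MHC class I.

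On both arrays the cells carried the macrophage markers, of which 12 of 13 were above the background level of 59.9 (all but Cd163), with a median log2 ratio of -0.22 and a summed signal of 126765 with GGOH and 139789 without. Of 14 mesothelial and fibroblast markers, 13 were above background on the LPS+CPN+GGOH array and 3 (Col1a2, Dcn and Sparc) on the LPS+CPN array, with summed signals of 29567 and 1446. Neutrophil markers summed to 2367 with GGOH and 4514 without, nearly all of it S100a8, and 3 of 5 dendritic cell markers were above background with GGOH and 2 without. Of 5 endothelial markers, 2 (Kdr and Vwf) were above background on each array. None of the T and NK, B cell, or mast cell and eosinophil markers was above background on either array. The ratio of 3' to 5' signal was 1.25 for Actb and 0.956 for Gapdh on the LPS+CPN+GGOH array, against 2.44 and 1.98 on the LPS+CPN array. The part of these differences in the proteasome values was not tested. In a bulk sample, fewer cells of a type and less RNA per cell cannot be told apart.

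Of the immunoproteasome genes, Psmb8 and Psmb9 lie close to genes of the same antigen-processing route, while Psmb10 lies on chromosome 8 and Psme1 on chromosome 14. Psmb9, Tap1, Psmb8 and Tap2 follow each other on mouse chromosome 17 in the MHC, with no other protein-coding gene between them in RefSeq. The promoter windows of Psmb9 and Tap1 point away from each other and share 275 bases. The RefSeq promoters of the 4 immunoproteasome members and of the constitutive Psmb5 and Psmb6 are shown, since these are the genes set against each other below. The 300-base windows on GRCm38.p6 are read 5′ to 3′ on the gene's strand, from 250 bases before the start to 50 after it. They lie at chr17:34197945-34198244 (plus strand), chr17:34187281-34187580 (minus), chr8:105938343-105938642 (minus), chr14:55578244-55578543 (plus), chr14:54617946-54618245 (minus) and chr11:70525107-70525406 (plus). Capitals mark matches to 3 motifs searched on both strands: TTCNNNGAA, the form of a gamma-activated site bound by STAT factors; TGANNNNGC, the core of the antioxidant response element bound by NRF1 and NRF2; and the core of the interferon-stimulated response element, GAAA followed by any 2 bases and GAAA again. TTCNNNGAA reads alike on both strands and was counted once, and no matches overlapped in the windows shown.
Psmb8: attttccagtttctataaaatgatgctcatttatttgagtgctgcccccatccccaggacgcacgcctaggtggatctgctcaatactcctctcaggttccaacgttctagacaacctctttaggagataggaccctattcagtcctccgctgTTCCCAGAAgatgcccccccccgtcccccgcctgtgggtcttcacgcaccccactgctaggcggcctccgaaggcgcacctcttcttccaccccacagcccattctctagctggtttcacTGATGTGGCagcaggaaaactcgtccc
Psmb9: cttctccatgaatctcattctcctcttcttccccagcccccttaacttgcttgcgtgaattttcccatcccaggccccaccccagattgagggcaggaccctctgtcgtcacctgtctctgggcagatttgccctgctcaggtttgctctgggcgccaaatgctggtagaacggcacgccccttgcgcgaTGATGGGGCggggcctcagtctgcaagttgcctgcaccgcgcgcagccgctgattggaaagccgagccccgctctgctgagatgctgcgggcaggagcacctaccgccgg
Psmb10: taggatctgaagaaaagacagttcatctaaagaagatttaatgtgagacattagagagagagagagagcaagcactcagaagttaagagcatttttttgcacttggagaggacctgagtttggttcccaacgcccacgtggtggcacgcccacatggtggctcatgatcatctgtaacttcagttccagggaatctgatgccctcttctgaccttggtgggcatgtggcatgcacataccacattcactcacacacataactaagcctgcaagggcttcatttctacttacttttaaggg
Psme1: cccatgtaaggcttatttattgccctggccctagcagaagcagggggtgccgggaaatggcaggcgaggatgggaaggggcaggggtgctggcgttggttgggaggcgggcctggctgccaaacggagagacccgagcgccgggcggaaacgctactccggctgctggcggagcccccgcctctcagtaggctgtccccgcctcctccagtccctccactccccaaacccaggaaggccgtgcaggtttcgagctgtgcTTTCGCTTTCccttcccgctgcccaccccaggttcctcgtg
Psmb5: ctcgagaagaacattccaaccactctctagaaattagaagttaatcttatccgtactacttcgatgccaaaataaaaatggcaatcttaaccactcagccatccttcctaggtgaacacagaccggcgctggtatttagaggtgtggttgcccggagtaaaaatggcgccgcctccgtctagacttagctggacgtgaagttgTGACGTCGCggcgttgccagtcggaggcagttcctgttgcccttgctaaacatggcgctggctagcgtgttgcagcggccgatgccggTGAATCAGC
Psmb6: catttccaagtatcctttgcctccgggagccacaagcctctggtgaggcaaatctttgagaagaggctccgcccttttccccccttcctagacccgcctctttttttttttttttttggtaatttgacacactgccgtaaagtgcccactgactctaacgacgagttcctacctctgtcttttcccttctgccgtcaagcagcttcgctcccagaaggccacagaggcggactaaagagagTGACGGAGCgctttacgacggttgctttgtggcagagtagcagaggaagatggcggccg

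In these windows Psmb8 held 1 match to TTCNNNGAA and 1 to TGANNNNGC, Psmb9 held 1 match to TGANNNNGC, and Psme1 held 1 match, on its minus strand, to the interferon-stimulated core. Psmb5 held 2 matches to TGANNNNGC and Psmb6 held 1. The Psmb10 window held none of the 3, which says only that these letters are not in it. RefSeq can list several starts for a gene, and whether the Psmb10 window, or any other, holds the start used in macrophages was not tested. Of all 32851 RefSeq promoter windows, 8.30% held TTCNNNGAA, 41.3% held TGANNNNGC and 3.44% held the interferon-stimulated core. Among the constitutive genes, 35 had a window, and TGANNNNGC was found in 19 of them, TTCNNNGAA in 2 (Psmd2 and Psmg1) and the interferon-stimulated core in 4 (Psmb3, Psmd4, Psmd9 and Psmg4). Each of the 3 motifs was thus found in both groups of genes, and no match was shown here to be bound by any factor.

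The catalytic immunoproteasome genes had lower signals on the LPS+CPN+GGOH array, in graded amounts. Psmb10, the immunoproteasome form of the trypsin-like subunit, had a signal of 7904 with LPS+CPN+GGOH and 13473 with LPS+CPN, which made it 1.70-fold lower (log2 ratio -0.77). Psmb9, the form that replaces the caspase-like subunit, had 7268 with LPS+CPN+GGOH and 9925 with LPS+CPN (log2 ratio -0.45). Psmb8, the chymotrypsin-like form, had 13546 with LPS+CPN+GGOH and 16316 with LPS+CPN (log2 ratio -0.27). The activator subunit Psme1 was nearly level, at 14442 with LPS+CPN+GGOH and 15146 with LPS+CPN (log2 ratio -0.07).

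All 4 ratios were below 0, against 31 of all 48 members and 51.4% of all 11518 measured genes, although that of Psme1 was above 0 under 3 other scalings (0.05 with quantiles, 0.06 with a lowess and 0.15 with macrophage markers set equal). Their median was -0.36, beside a median of -0.01 over all measured genes. Ratios ran lower among bright genes, as these 4 are. Of the 3808 genes with a signal of 1000 or more on both arrays, 2353 were below 0, with a median of -0.09. Genes with a geometric mean signal above 8000 had a median of -0.17. As deposited, Psmb10 had the lowest log2 ratio of the 48 proteasome genes, and Psmb9 the third lowest. Under some alternatives a gene near background was lower than Psmb10. This was Psma8 with quantiles (-0.70 against -0.68), and Psmb11 with a floor at the 25th percentile (-2.08) or a pseudocount (-0.92). The rank of Psmb9 was also not fixed, since as deposited Psmd3 (-0.44) was very close to it. With quantiles Psmd3 (-0.42) was lower than Psmb9 (-0.39). With a lowess Psma8 (-0.52) and Psmd3 (-0.39) were lower than Psmb9 (-0.35). With the median over probe sets Psmb1 (-0.58) was lower than Psmb9 (-0.45). Psme2, the partner of Psme1, has no value here, because the probe set that names it lists a further gene. Psmb9, Psmb10 and Psme1 each rest on 1 probe set, and the other probe set of Psmb8, of the _x_at class that can cross-hybridize, read 687 with LPS+CPN+GGOH and 674 with LPS+CPN (log2 ratio 0.03).

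The constitutive counterparts that these subunits replace were higher or nearer to level. Psmb7, the standard trypsin-like subunit, had 4969 with LPS+CPN+GGOH and 4035 with LPS+CPN (log2 ratio 0.30). Psmb6, the caspase-like subunit, had 17455 with LPS+CPN+GGOH and 18096 with LPS+CPN (log2 ratio -0.05). Psmb5, the chymotrypsin-like subunit, had 10905 with LPS+CPN+GGOH and 11800 with LPS+CPN (log2 ratio -0.11). Each catalytic immunoproteasome gene thus had a lower log2 ratio than its counterpart. The difference of the log2 ratios was -1.07 for Psmb10 minus Psmb7, -0.40 for Psmb9 minus Psmb6 and -0.15 for Psmb8 minus Psmb5.

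Expressed as a fold, the ratio of Psmb10 to Psmb7 was 2.10-fold lower on the LPS+CPN+GGOH array, that of Psmb9 to Psmb6 1.32-fold lower and that of Psmb8 to Psmb5 1.11-fold lower. A factor that multiplies a whole array cancels in these differences. As a scale, probe sets that report 1 gene differed in log2 ratio by a pooled SD of 0.31 where both signals were 1000 or more (854 genes), and by 0.29 in the 8 proteasome genes that had several such probe sets. For a difference of 2 probe sets an SD of 0.31 corresponds to 0.44. The differences for Psmb8 and Psmb9 were smaller than 0.44 and that for Psmb10 was larger. This scale describes probe sets within arrays and takes no account of the variation between cultures.

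**Figure D1:**
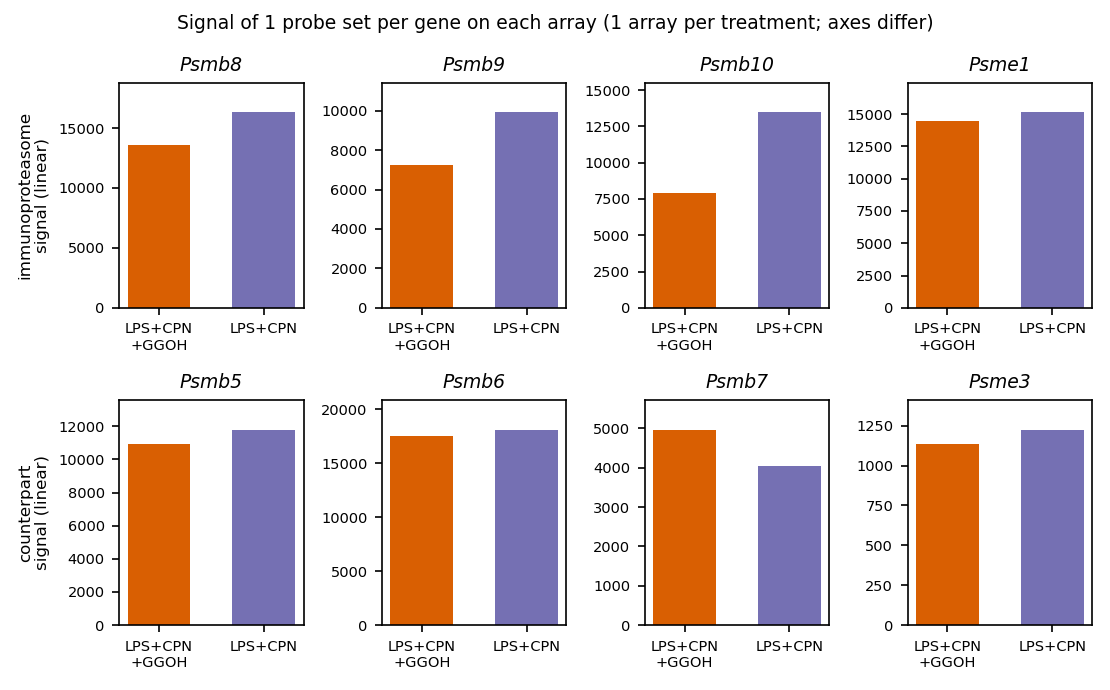
Signal (linear scale, from 0) of 1 probe set per gene on the LPS+CPN+GGOH array (left bar) and the LPS+CPN array (right bar), with the immunoproteasome genes above and Psmb5, Psmb6, Psmb7 and the activator gene Psme3 below. The widest gap is that of Psmb10 (7904 and 13473), while Psmb7 below it runs the other way (4969 and 4035); axes differ between panels and there is no error bar, since each treatment had 1 array.

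The immunoproteasome genes were also set against the constitutive genes as a whole. The 42 constitutive genes (all members but the immunoproteasome, Psma8 and Psmb11) had a median log2 ratio of -0.08, so that the immunoproteasome median lay 0.28 below it on the log2 scale (a difference of -0.28). Without Psme1, the 3 catalytic genes had a median of -0.45, which differed by -0.39 from the median of the 14 constitutive core genes (-0.06). None of the 42 had a lower ratio than Psmb10, and 1, Psme4, had a lower one than Psmb9. For Psmb8 and Psme1 the numbers were 5 and 22 of 42, so these genes lay within the range of the constitutive ones.

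No member was 2-fold apart in either direction. Over all measured genes 5.50% were higher and 1.66% lower by that much, but among the 3808 genes with a signal of 1000 or more on both arrays, as 42 of the 48 members had, the shares were 0.368% and 0.972%. At 1.5-fold, none of the 48 was higher and 2 were lower, namely Psmb10 and the activator gene Psme4. These counts turned with the scaling: with macrophage markers set equal 6 members were 1.5-fold higher and none lower (Psmb10 at -0.55), and with arrays divided by their medians none was higher and 5 were lower. The shares over all measured genes were 12.5% higher and 7.82% lower. Among the genes of 1000 or more, 2.36% were higher and 6.14% lower by 1.5-fold. As deposited, the members' counts at both thresholds were thus near those of genes of like signal.

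The log2 ratio also ran with signal, which matters for genes as bright as these. Over the 10531 measured genes with a geometric mean signal above 59.9 on the 2 arrays, the median was 0.04 up to 1000, -0.08 between 1000 and 4000, -0.10 between 4000 and 8000 and -0.17 above 8000. The constitutive genes had medians of 0.47 (3 genes), -0.11 (12 genes), -0.0004 (10 genes) and -0.15 (17 genes) in these classes, so those between 4000 and 8000 were level while the brightest were close to all genes. All 4 immunoproteasome genes fell in that class of 581 genes, in which 18 had a lower ratio than Psmb10, 70 than Psmb9, 187 than Psmb8 and 372 than Psme1. Psmb10 was thus low among genes of like signal, Psmb9 less so, and Psmb8 and Psme1 were not.

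**Figure D2:**
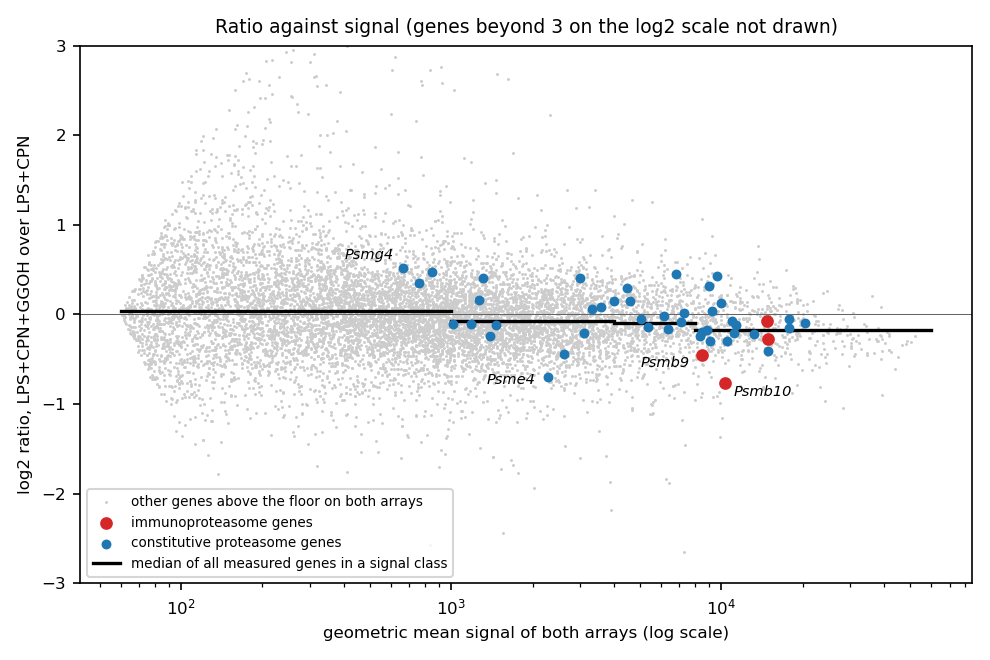
Log2 ratio of LPS+CPN+GGOH over LPS+CPN (y axis) against the geometric mean signal of both arrays (x axis, log scale) for genes above background on both arrays, with immunoproteasome genes in red, constitutive proteasome genes in blue and horizontal lines for the median of measured genes in each of 4 signal classes. The lines step down from 0.04 to -0.17 with rising signal, and Psmb10 at -0.77 is the lowest of the coloured points.

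The core rings differed little, gene by gene in both directions. Of the 7 alpha ring genes, 4 were below 0 and 3 above, with a median log2 ratio of -0.07. At the low end, Psma2 had 12899 with LPS+CPN+GGOH and 17123 with LPS+CPN (log2 ratio -0.41). At the high end, Psma7 had 7937 with LPS+CPN+GGOH and 5803 with LPS+CPN (0.45), and a second probe set of it gave 0.28. Subunits that assemble in equal number in the ring thus had log2 ratios from -0.41 to 0.45 on these arrays, a range wider than the gap between Psmb9 and its counterpart.

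Other alpha ring genes lay between, with Psma5 at -0.24, Psma3 at -0.15, Psma4 at -0.07, Psma1 at 0.32 and Psma6 at 0.43. The sign of Psma6 depended on the probe set, since its brightest one is of the _x_at class and gave -0.18. The structural beta genes Psmb1, Psmb2, Psmb3 and Psmb4 ranged from -0.29 (Psmb3) to 0.15 (Psmb2), with a median of -0.03. A dimmer probe set of Psmb3 gave 0.27. None of the 14 constitutive core genes was 1.5-fold apart, and their median was -0.06. Among genes of 1000 or more on both arrays 2.36% were 1.5-fold higher and 6.14% lower. A count of none among 14 is near those shares.

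In the 19S cap the ATPase genes spanned a narrow band. Psmc1 to Psmc6, which form the ring that unfolds substrates, had a median log2 ratio of -0.03. The lowest was Psmc6, at 8208 with LPS+CPN+GGOH and 10099 with LPS+CPN (-0.30), and the highest Psmc1, at 3707 with LPS+CPN+GGOH and 3498 with LPS+CPN (0.08). The 2 dimmer probe sets of Psmc6 gave 0.21 and 0.49, so the direction for that gene was not settled by its own probe sets.

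The 11 other cap subunits had a median log2 ratio of -0.10, with 7 below 0 and 4 above. Psmd3, a subunit of the lid, was lowest at 2236 with LPS+CPN+GGOH and 3042 with LPS+CPN (-0.44). Psmd7, the lid partner of the deubiquitinase Psmd14, was highest at 1501 with LPS+CPN+GGOH and 1136 with LPS+CPN (0.40). A dimmer probe set of Psmd7, at 282 with LPS+CPN+GGOH and 310 with LPS+CPN, gave -0.13. Psmd14 itself had a log2 ratio of -0.17, the ubiquitin receptor Psmd4 one of 0.01, and the scaffold subunits Psmd1 and Psmd2 had -0.16 and -0.09. The cap subunits thus covered about the same band as the core.

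Probe sets of 1 gene often disagreed, and this bounds what a ratio of 1 probe set can tell. Of 18 members with several measured probe sets, 13 had both signs among them. The same share over all genes was not counted, and signs split easily where ratios lie near 0. Disagreement was not particular to the members. For probe sets above background on both arrays, the pooled SD was 0.38 in 17 members and 0.45 over 4166 genes. For Psmd4 the 3 probe sets gave -0.54, 0.01 and 0.63. For Psmd11, a lid subunit with 8 probe sets of which 5 were measured, they ran from -0.46 to 0.38. For Psmd13 the brightest probe set gave -0.21 while a dim one, at 114 with LPS+CPN+GGOH and at background with LPS+CPN, gave 0.92 as a lower bound.

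**Figure D3:**
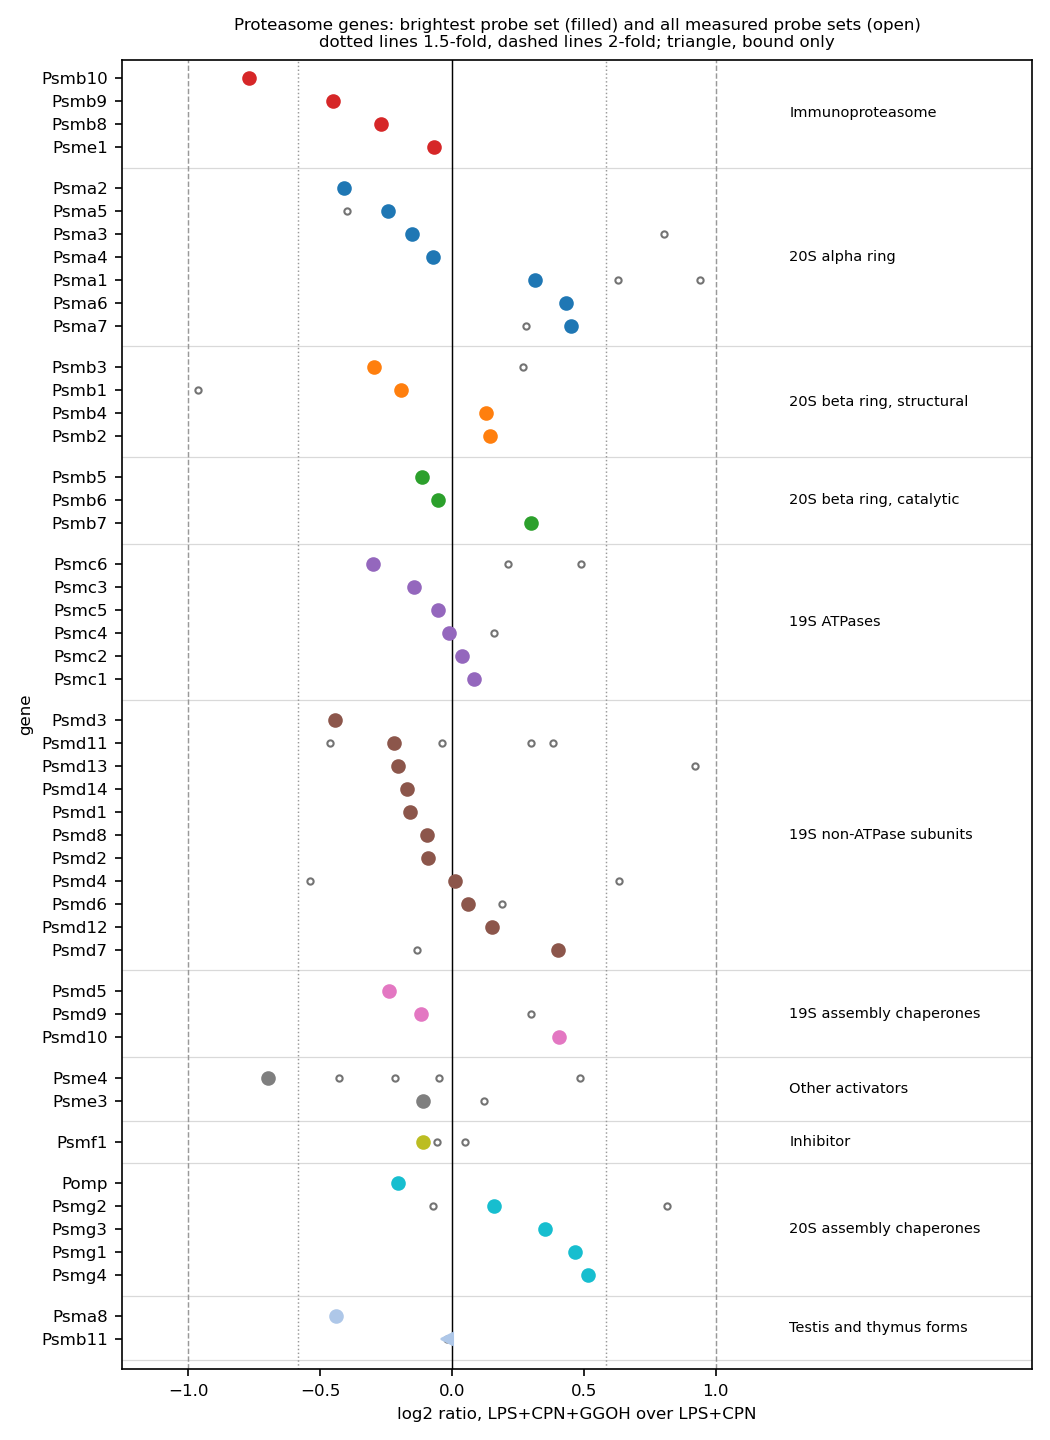
Log2 ratio of LPS+CPN+GGOH over LPS+CPN (x axis) for the 48 proteasome genes (rows), grouped by role, with the brightest probe set filled and other measured probe sets open. Dotted lines mark 1.5-fold and dashed lines 2-fold; the filled points of Psmb10 (-0.77) and Psme4 (-0.70) are the only ones past a dotted line, and the triangle for Psmb11 is a bound.

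The activators and the inhibitor were mostly near level. Psme4, the large activator that caps the core without ATP, had 1791 with LPS+CPN+GGOH and 2902 with LPS+CPN (log2 ratio -0.70). Its next brightest probe set agreed in sign, at 1739 with LPS+CPN+GGOH and 2339 with LPS+CPN (-0.43), but over its 5 measured probe sets the values ran from -0.70 to 0.49 with a median of -0.21. Psme3, the nuclear relative of Psme1, had 1136 with LPS+CPN+GGOH and 1226 with LPS+CPN (-0.11), and the inhibitor gene Psmf1 had 982 with LPS+CPN+GGOH and 1058 with LPS+CPN (-0.11).

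Of the 5 chaperones that build the core, the 4 Psmg genes had log2 ratios above 0, although that of Psmg2 was -0.01 with arrays divided by their medians. Psmg1 and Psmg2 form one of the pairs that line up the alpha ring, and Psmg3 and Psmg4 form the other. Psmg4 had 794 with LPS+CPN+GGOH and 555 with LPS+CPN (log2 ratio 0.52), the highest ratio of the family as deposited. With quantiles Psma7 (0.51) and Psma6 (0.50) were higher than Psmg4 (0.45). With a lowess Psma6 (0.54) and Psma7 (0.53) were higher than Psmg4 (0.49). With the median over probe sets Psma1 (0.63) was higher. Psmg1 had 999.7 with LPS+CPN+GGOH and 723 with LPS+CPN (0.47), and Psmg3 had 862 with LPS+CPN+GGOH and 674 with LPS+CPN (0.35). Psmg2 had a log2 ratio of 0.16, with probe sets from -0.07 to 0.81.

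Pomp, the maturation factor that brings the beta subunits together and is used up in the process, did not go with the Psmg genes. It had 10356 with LPS+CPN+GGOH and 11923 with LPS+CPN (log2 ratio -0.20). The median of the 5 core chaperone genes was 0.35, and none was 1.5-fold higher, against 12.5% of all measured genes. The 4 Psmg genes are also among the dimmer members, in the signal range where all genes had medians of 0.04 and -0.08. Of the chaperones of the cap, Psmd10 had 3446 with LPS+CPN+GGOH and 2597 with LPS+CPN (0.41), while Psmd9 (-0.12) and Psmd5 (-0.24) were below 0.

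The tissue-restricted forms were at or near background. Psma8, the alpha subunit of the testis, read 84.5 with LPS+CPN+GGOH and 115 with LPS+CPN. Psmb11, the catalytic subunit of the thymic epithelium, read 3.98 with LPS+CPN+GGOH and 60.7 with LPS+CPN, of which only the second was above the background level of 59.9. Their log2 ratios, -0.44 and, as a bound, -0.02, rest on signals near background, and no difference is read from them.

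Genes that act with the proteasome but are no subunits of the families above had a median log2 ratio close to that of the constitutive genes. The median was -0.07 over the 18 with a value, beside -0.08. Of the 18, none was 1.5-fold higher and 1 was lower, the ubiquitin ligase gene Ube3c (log2 ratio -0.78, with 2 dimmer probe sets up to 0.17). Over all measured genes 12.5% were 1.5-fold higher and 7.82% lower. Among genes of 1000 or more on both arrays the shares were 2.36% and 6.14%. The counts thus say little about these genes in particular. Nfe2l1, the NRF1 factor that raises proteasome genes when proteasome activity is short, had 2388 with LPS+CPN+GGOH and 2483 with LPS+CPN (-0.06). The cap subunit Sem1 had a log2 ratio of -0.15, the segregase Vcp -0.24 and the proteasome-bound deubiquitinase Usp14 0.29. Each also had a dimmer probe set of the other sign, at 0.19 for Sem1, 0.59 for Vcp and -0.03 for Usp14.

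The MHC class I route, in contrast, held 3 genes with lower log2 ratios than any proteasome gene, namely Ubd, Tap1 and Tap2. Of 13 with a value, 5 were at least 1.5-fold lower and 1 (the chaperone Pdia3, 0.66) at least 1.5-fold higher, with a median of -0.34. Another probe set of Pdia3 gave 0.16. The shares over all measured genes were 7.82% lower and 12.5% higher, and among genes of 1000 or more on both arrays 6.14% and 2.36%. This list was chosen with earlier results of these data known. Tap1, a subunit of the peptide transporter and the gene across the shared promoter from Psmb9, had 6759 with LPS+CPN+GGOH and 12800 with LPS+CPN (log2 ratio -0.92). Tap2, the other subunit, had 2568 with LPS+CPN+GGOH and 4933 with LPS+CPN (-0.94). Within the stretch of chromosome 17 that holds the 4 genes, the log2 ratios were thus -0.45 for Psmb9, -0.92 for Tap1, -0.27 for Psmb8 and -0.94 for Tap2, so that both transporter genes had lower log2 ratios than both proteasome genes.

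The remaining members of that list at least 1.5-fold lower were Ubd, Nlrc5 and Tapbpl. Ubd encodes a ubiquitin-like tag that sends proteins to the proteasome, and had 209 with LPS+CPN+GGOH and 833 with LPS+CPN (log2 ratio -2.00). Nlrc5, the transactivator of class I genes, had 1921 with LPS+CPN+GGOH and 3248 with LPS+CPN (-0.76). The light chain gene B2m had a log2 ratio of -0.19. H2-D1 was 0.58 by the one measured probe set outside the _x_at class, and near-identical class I genes can share its signal, so its direction is uncertain.

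Of the interferon-response genes, Irf1, a factor known to drive Psmb9 and Tap1, had 2904 with LPS+CPN+GGOH and 18294 with LPS+CPN (log2 ratio -2.66). Irf2 (-0.83) and Irf8 (-0.75) were also at least 1.5-fold lower, while the receptor gene Ifngr1 (0.53) and Stat2 (0.36) were above 0 and Irf9 (0.08) and Jak1 (0.01) were level. The median of the 9 genes of this list was 0.01. The list holds the receptor genes Ifngr1 and Ifngr2 and the kinase genes Jak1 and Jak2 besides the Irf and Stat genes. Its median thus does not describe the transcription factors alone. The range in this list was thus far wider than in the immunoproteasome genes, whose largest difference was that of Psmb10. Whether Irf1 or any other factor bears on the proteasome genes was not tested.

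**Figure D4:**
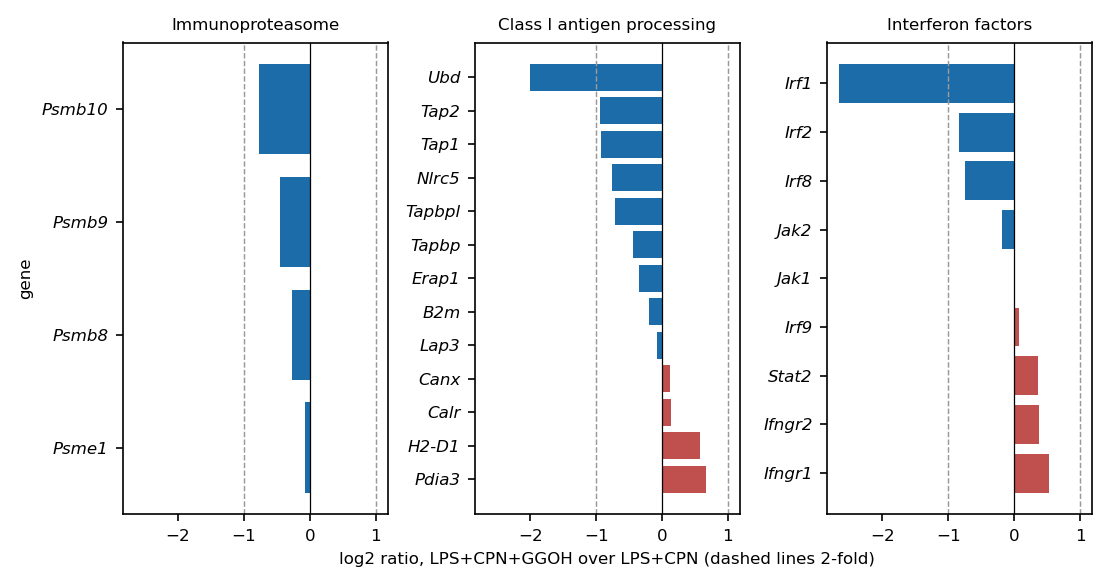
Log2 ratio of LPS+CPN+GGOH over LPS+CPN (bars from 0, with dashed lines at 2-fold) for the immunoproteasome genes, class I antigen processing genes and interferon factors. Bars run from -2.66 (Irf1) to 0.66 (Pdia3), and those of the 4 immunoproteasome genes lie between -0.77 and -0.07.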

How the data were processed

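Gene expression was measured on 2 arrays, 1 per treatment, with groups taken from the treatment labels. The deposited values are signal intensities on a linear scale, 1 per probe set and array, made with MAS5 per the submitters' processing notes; no version or target level is named there. The mean of the central 96% of the 45101 deposited signals was 500.0 on each array, so the authors' values were already at a common level. Having 2 arrays limits the precision of every value.

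Probe sets took their gene from the platform annotation: of 45037 that were no controls, 34945 had 1 gene symbol, 932 several and 9160 none. All 48 member genes were found by identifier in RefSeq (GRCm38.p6), with no symbol changed. Promoter windows matched 40 of them. Control and _x_at probe sets were left out of gene values (9 of the 101 member probe sets), and probe sets naming several genes were not used. Signals under the 50th percentile of both arrays, 59.9, were set to this floor, which is what background means here. Of the 92 other member probe sets, 73 were above it on both arrays, 4 on 1 and 15 on neither; all 48 genes were measured, 47 on both arrays. Where a gene had several, the probe set of highest mean log2 value before flooring stood for it. Thresholds of 2-fold and 1.5-fold were used as sizes, not tests.

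Members, lists and genes to be named were chosen with earlier results of these data known. Named were the immunoproteasome genes, their counterparts, Pomp, Psme3, Psme4 and Psmf1, the highest and lowest ratio of each role group, genes past 1.5-fold and those whose probe sets disagreed most; further genes of the related lists were chosen after their values were seen. Psme2b, Psmc3ip and Psme3ip1 were outside the rule. The signal classes and the limit of 1000 were also set after the values were seen. Altogether 9 alternatives were tried: division by array medians, quantile normalization, a lowess (span 0.4), equal macrophage markers, a floor at the 25th or the 75th percentile, the floor added as a pseudocount, the median over probe sets, and _x_at probe sets kept.

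The steps were tested on simulated data made from the LPS+CPN array (10968 measured genes, noise SD 0.2): 1.5-fold was passed by 86.0% of genes altered by 0.8 on the log2 scale, by 90.0% of those altered by -0.8, and by 100% of those altered by 1.5 or -1.5. The noise was smaller than the pooled SD of 0.31 between bright probe sets of a gene, and altered genes were drawn from those well above background. These shares thus describe a milder setting than the real arrays. Python 3.11.15, pandas 2.3.3, numpy 2.4.6 and statsmodels 0.14.6 were used.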

Additional observations from a re-analysis of the deposited data

How the results depend on the processing

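Dividing the arrays by their medians moved the median of all genes by -0.16, and setting the macrophage markers equal moved it by 0.20, so the members' own signs follow the scaling where they are small: the immunoproteasome median ran from -0.53 to -0.14 over the 9 alternatives, and the log2 ratio of Psme1 from -0.24 to 0.15. The contrasts between genes moved less, which most of the alternatives fix in advance. A factor on a whole array cancels in them, and the floors lie far below these signals. Each gene of the pairs also has only 1 probe set outside the _x_at class. The pairs moved only under quantile normalization, the lowess and the pseudocount, so their narrow ranges do not measure how well they hold. Psmb10 minus Psmb7 stayed between -1.07 and -1.02, Psmb9 minus Psmb6 between -0.46 and -0.39, Psmb8 minus Psmb5 between -0.15 and -0.11, and the immunoproteasome minus constitutive median between -0.38 and -0.26.

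Over all genes, 1444 were at least 1.5-fold higher and 901 lower as deposited, against 1056 and 1690 under median scaling, 1079 and 1346 under quantile normalization, 1315 and 1007 after the lowess, and 2290 and 436 under equal macrophage markers. At 2-fold the counts, 634 higher and 191 lower as deposited, were 529 and 332, 503 and 307, 603 and 218, and 898 and 91 in the same order. Floors at the 25th and 75th percentiles gave 1658 and 1127, and 126 and 88, at 2-fold, and 2939 and 2433, and 385 and 462, at 1.5-fold.

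Counts of members past 1.5-fold depended on the setting. With arrays divided by their medians 5 were lower, under equal macrophage markers 6 were higher and 0 lower, and with the median over probe sets 1 was higher (Psma1) and 1 lower (Psmb10). With the floor at the 25th percentile 1 member, Psmb11, was at least 2-fold lower, and the median of the testis and thymus forms was -1.26; both rest on signals near background. The median over probe sets turned Psma3 (0.33), Psmc6 (0.21) and Psmd13 (0.36) above 0 and brought Psme4 to -0.21, and with _x_at probe sets kept Psma6 was -0.18. No paired analysis was possible because each group had 1 array. With 1 array each, no setting shows how the values would vary between cultures.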
